A study of Mus musculus with 8 samples.

Results

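The genes described here encode membrane carriers for sugars, for lactate and its relatives, and for amino acids. They were chosen by gene symbol from the deposited gene table, as the rows of the Slc2a, Slc16a, Slc1a, Slc7a and Slc38a families, and made up 57 of its 36048 genes. Of these rows, 55 are transporter genes. The other two carry a family symbol without being carriers: Slc2a4rg-ps is a pseudogene named after a regulator of Slc2a4, and Slc7a6os is the gene next to Slc7a6 on the opposite strand. RNA was sequenced from 3 kinds of cell in mouse muscle. The endothelial cells (EC, n = 3, replicates 1 to 3) of the vessels and the satellite cells, which are muscle stem cells (SC, n = 2, replicates 1 and 3), were obtained from hindlimb muscles by flow cytometric sorting, with about 100000 cells for each library. Single muscle fibres (SMF, n = 3, replicates 1 to 3) came from the extensor digitorum longus (EDL), and each library held 100 intact fibres picked by hand after 3 h of rest. No genotype, strain, age or treatment is given for any group. The muscle of origin and the way of isolation differed between SMF and both sorted populations. In comparisons with SMF their parts therefore cannot be told apart from that of the population. Nothing in the labels ties replicates to separate animals, and the p-values therefore cover only the variation among the 8 libraries, which may be technical.

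Carriers of these families set which fuels and building blocks enter and leave a cell. Slc2a genes encode the facilitative sugar transporters (GLUT proteins). Slc16a genes encode the monocarboxylate transporters (MCT proteins), some of which carry lactate and pyruvate together with a proton, while others carry other cargo such as aromatic amino acids. Slc1a genes encode sodium-coupled carriers of glutamate and of small neutral amino acids, Slc7a genes the carriers of cationic and large neutral amino acids, and Slc38a genes sodium-coupled carriers of glutamine, alanine and similar amino acids. In skeletal muscle the textbook case is the Slc2a4 product GLUT4, which moves to the surface of fibres in response to insulin and contraction.

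Values are FPKM, fragments per kilobase of gene relative to all fragments of the library, as deposited. Levels of different genes are set side by side on this scale, although the deposited TPM values put some genes in another order. Each labelled cell type had the highest level of its own markers, where fibres were judged by fast fibre markers. Slow fibre markers went another way: 6 of them summed to 12.8 and 23.8 FPKM in SC, 1.76, 0.474 and 0.0799 in SMF, and at most 2.27 in EC. The summed FPKM of 8 endothelial markers was 1160 to 1170 in EC and at most 26.9 elsewhere, that of 8 satellite cell markers was 469 to 549 in SC and at most 23.6 elsewhere, and that of 8 fast fibre markers was 28700 to 31200 in SMF, 111 to 179 in SC and 5.72 to 13 in EC. EC replicate 2 stood apart from the other EC libraries, with a sum of 226 for 8 pericyte and smooth muscle markers against 580 and 698, and of 9.2 for 8 immune cell markers against 54.1 and 75.1. Markers of other cell types were also present in SC, with 218 and 273 for pericytes and smooth muscle and 26.3 and 31.2 for immune cells, against at most 29.9 and 3.41 in SMF. The sum of 8 markers of fibro-adipogenic progenitors was 172 to 223 in EC, 155 to 166 in SC and 25 to 44.2 in SMF. The part of these other cells in the results below was not tested. Judged by the deposited coverage, EC and SC libraries held 277.9 to 367.8 Mb of aligned sequence and SMF libraries 525.5 to 580.8 Mb, at which 1 fragment on 1 kb is worth 0.272 to 0.36 FPKM in the former and 0.172 to 0.19 in the latter. Low values therefore rest on a few fragments. A value of exactly 0 may be a failed estimate, so groups with such a value are given by library.

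Genes with 1 FPKM or more in 2 or more libraries were tested, and a gene was called when its limma adjusted p was under 0.05 over all 16700 genes tested. The filter was passed by 31 of the 57 rows, 29 of them transporters: 8 of 13 in Slc16a, 3 of 6 in Slc1a, 6 of 11 in Slc2a, 6 of 11 in Slc38a and 6 of 14 in Slc7a. A gene can pass this filter through the one population where it is high, so the counts below describe the tested genes and not the families as a whole. The 26 genes that did not pass had group means of at most 0.955 FPKM. They were Slc16a4, Slc16a5, Slc16a8, Slc16a12 and Slc16a14 among the monocarboxylate carriers and Slc1a2, Slc1a3 and Slc1a7 among the glutamate carriers. Among the sugar carriers they were Slc2a2, Slc2a5, Slc2a6, Slc2a9 and Slc2a13, and among the Slc38a genes Slc38a5, Slc38a7, Slc38a8, Slc38a9 and Slc38a11. In Slc7a they were Slc7a3, Slc7a4, Slc7a10, Slc7a11, Slc7a12, Slc7a13, Slc7a14 and Slc7a15. The highest of them was Slc16a4, at 0.676, 1.51 and 0.683 FPKM in EC.

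Each population had its own set of abundant carriers. Fibres were high in the insulin-responsive glucose carrier Slc2a4, the lactate carrier Slc16a3 and the amino acid carrier Slc38a4, satellite cells in the large neutral amino acid carriers Slc7a8 and Slc7a5, and endothelial cells in Slc16a13 and Slc16a11 at lower levels. Of the 29 tested transporters, 11 were called above both other populations in SC (among them Slc16a1, Slc1a4, Slc2a3, Slc2a12, Slc38a1, Slc7a1, Slc7a2, Slc7a5, Slc7a6 and Slc7a8). In EC there were 5 such genes (Slc16a9, Slc16a11, Slc16a13, Slc1a1 and Slc7a7) and in SMF 4 (Slc16a3, Slc16a10, Slc2a4 and Slc38a4). A further 5 were above SMF in both sorted populations (Slc1a5, Slc2a1, Slc2a10, Slc38a6 and Slc38a10), Slc38a3 was above EC in SC and SMF, and Slc2a8 was above SMF in SC alone. Slc16a6 and Slc38a2 had no call in any comparison. These calls, and the shares of all genes given next, are those of the deposited scale. Of the genes named for SC, Slc1a4, Slc2a3, Slc2a12, Slc38a1, Slc7a5 and Slc7a8 kept both calls under each other scaling described below. Slc16a1, Slc7a1, Slc7a2 and Slc7a6 did not, nor did Slc16a9 keep both calls for EC. The other EC genes and the SMF genes kept theirs, while Slc2a1 and Slc2a8 lost calls above SMF. Over all 16700 genes tested, 17.5% were above both others in SC, 15.2% in EC and 7.12% in SMF, 26.9% were above SMF in both sorted populations, and 19.2% had no call.

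**Figure D1:**
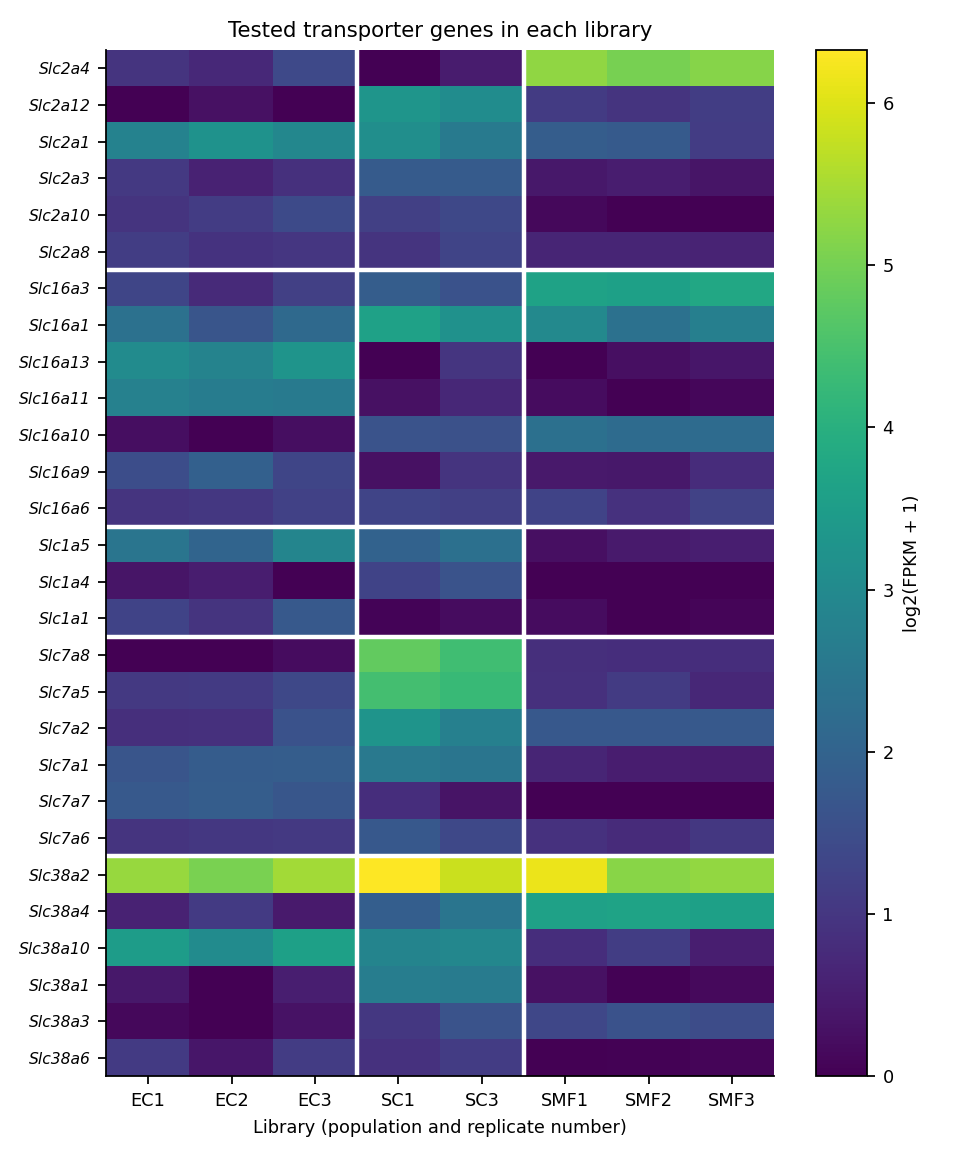
Level of 28 of the 29 tested transporter genes (rows, grouped from top to bottom as Slc2a, Slc16a, Slc1a, Slc7a and Slc38a) in the 8 libraries (columns), as log2(FPKM + 1). Slc2a4 is bright in the SMF columns, Slc7a8 and Slc7a5 in the SC columns, and Slc38a2 in every column, at 32.0 FPKM or more.

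Comparisons with fibres depended on how libraries were put on one scale. The median log2 difference of all genes tested was 0.93 for SC minus SMF and 0.85 for EC minus SMF as deposited, against 0.11 for SC minus EC. After median-of-ratios scaling these medians were 0.21, 0.20 and -0.01, after upper-quartile scaling 0.13, 0.03 and 0.06, and when libraries were scaled with each group's 50 most abundant genes left out 0.44, 0.55 and -0.12. The share of called genes that were higher in the first-named population fell with them, from 86.8% to 55.1%, 49.6% and 69.2% for SC against SMF, from 83.7% to 56.6%, 48.3% and 72.8% for EC against SMF, and from 56.3% to 47.4%, 54.7% and 39% for SC against EC. Calls below are those of the deposited scale, and a call said to hold under the other scalings kept its direction and its call under these 3.

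Between SC and EC, 5 of the 6 tested Slc7a carriers and 3 of the 6 tested Slc38a carriers were called higher in the satellite cells, of which 3 and 3 held under the other scalings. Of the 31 tested rows, 15 were higher in SC, 6 were higher in EC and 10 were not called. Their median log2 difference was 0.55, against 0.11 over all genes tested. Over all genes tested, 37.7% were called in this comparison, 21.2% as higher in SC and 16.4% as higher in EC. Of the 15 calls for SC, 11 held under the other scalings, as did 5 of the 6 for EC. The count for SC fell when either SC library was left out, and that for EC fell without SC replicate 1. Part of the fall for SC was in genes that were then not tested. With SC replicate 1 or 3 left out, Slc1a4, Slc38a1 and Slc7a8 no longer passed the filter, since only SC libraries held them at 1 FPKM or more.

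Between SC and SMF, 20 tested rows were higher in SC, 4 were higher in SMF and 7 were not called. Their median log2 difference SC minus SMF was 0.72, against 0.93 over all genes tested. The background was 65.1% of all genes called, 56.5% as higher in SC and 8.57% as higher in SMF. Of the 20 calls for SC, 13 held under the other scalings, and all 4 for SMF did (Slc2a4, Slc16a3, Slc16a10 and Slc38a4). The count for SC fell when either SC library was left out. Slc1a4, Slc38a1 and Slc7a8 were then not tested, nor was Slc2a8 without SC replicate 3. Between EC and SMF, 15 were higher in EC, 8 were higher in SMF and 8 were not called. Here 66.3% of all genes were called, 55.5% as higher in EC and 10.8% as higher in SMF. The median log2 difference EC minus SMF was 0.37 for the tested rows, against 0.85 over all genes tested. Of the 15 for EC, 10 held under the other scalings, as did all 8 for SMF (Slc2a4, Slc2a12, Slc16a3, Slc16a10, Slc38a3, Slc38a4, Slc7a2 and Slc7a8).

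**Figure D2:**
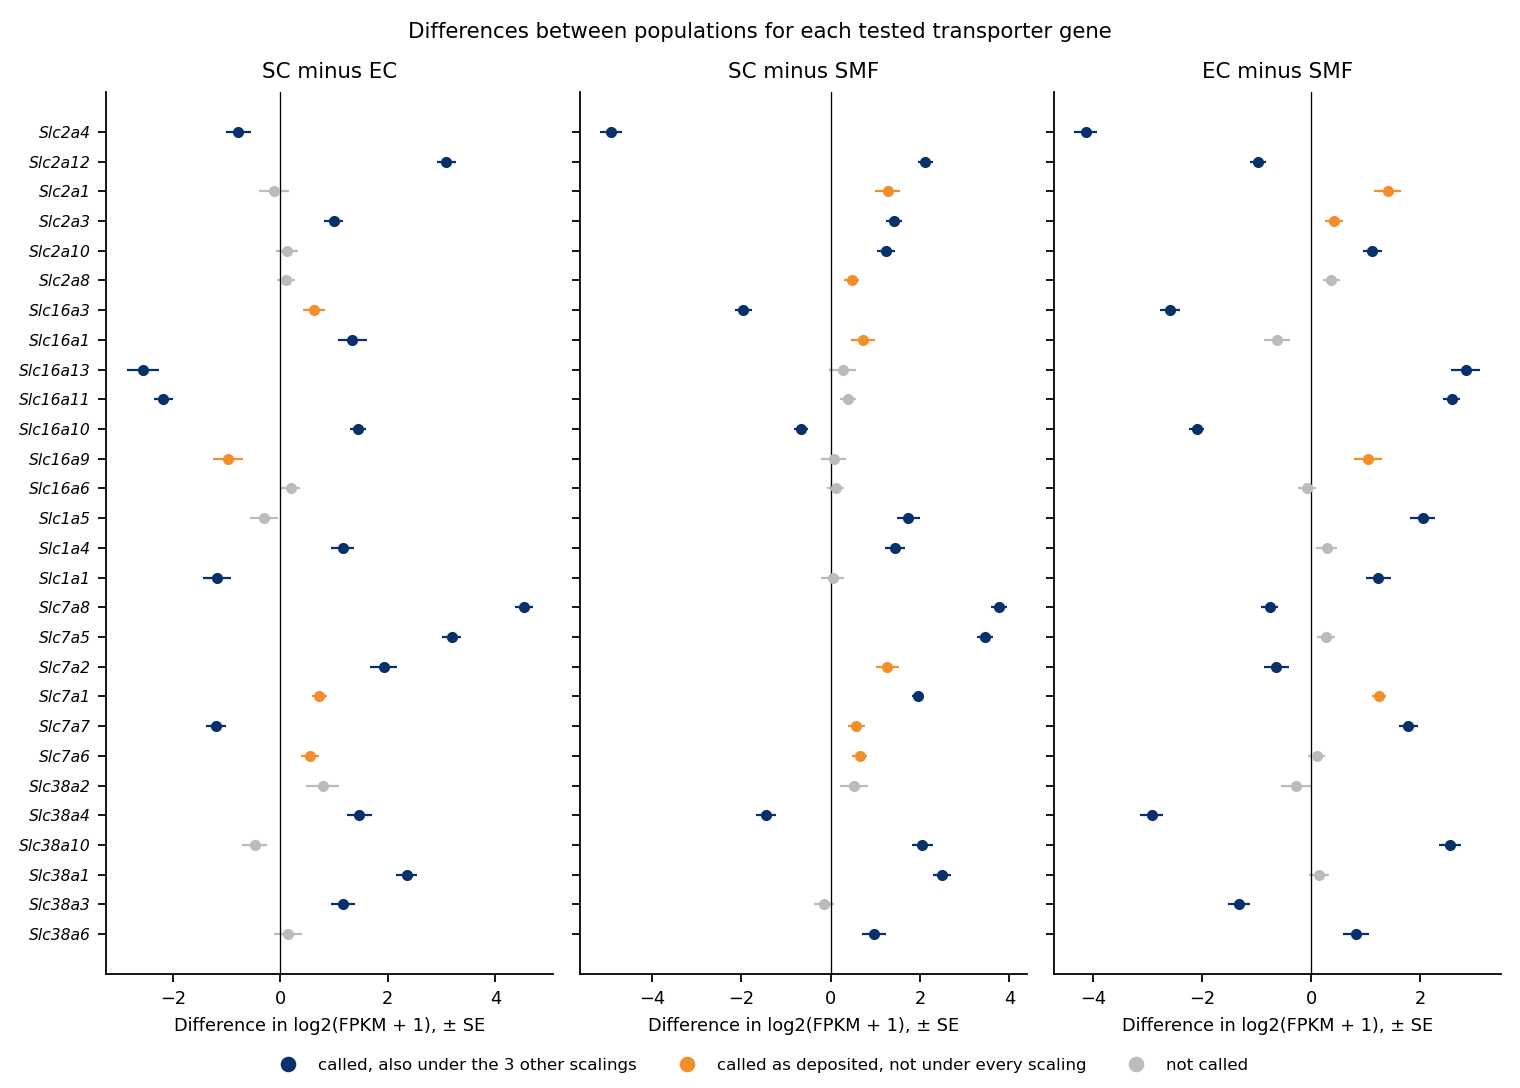
Difference in log2(FPKM + 1) between populations (x axis, points with standard error) for 28 of the 29 tested transporter genes (y axis), in the 3 comparisons. Dark blue points were called on the deposited scale and under the 3 other scalings, orange points on the deposited scale but not under every other scaling, and grey points were not called; the points far to the left for SMF are Slc2a4 (-4.91 and -4.13).

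The sugar carriers differed in which gene led the family. Slc2a4, which encodes GLUT4 (chromosome 11, 69942286 to 69948216; positions are those of GRCm38, that is mm10), stood at 37.7, 31.6 and 35.1 FPKM in SMF, at 0.933, 0.661 and 1.64 in EC, and at 0.402 in SC replicate 3 while listed at 0 in SC replicate 1. The fibre libraries lay far above all others, without overlap. The mean was 32.3-fold higher in SMF than in EC (log2 EC minus SMF -4.13, SE 0.21, adjusted p = 1.71e-06), and the log2 difference SC minus SMF was -4.91 (SE 0.24, adjusted p = 3.39e-06). The difference between SC and EC (log2 -0.78, adjusted p = 0.0343) was lost when any of 6 libraries was left out, with an adjusted p between 0.0537 and 0.202.

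Slc2a1, the gene of the basal glucose carrier GLUT1 (chromosome 4, 119108745 to 119137330), stood at 6, 8.36 and 6.64 FPKM in EC, 7.69 and 5.1 in SC, and 2.63, 2.46 and 1.17 in SMF. The EC and SC ranges overlapped and did not differ by test (log2 SC minus EC -0.12, SE 0.28, adjusted p = 0.767). Both were called above SMF on the deposited scale (log2 EC minus SMF 1.40, SE 0.25, adjusted p = 0.00141, and log2 SC minus SMF 1.28, adjusted p = 0.00428). Under the other scalings the call for SC was lost each time and that for EC in 2 of 3, and the differences ranged down to -0.10 and 0.05. Slc2a12, which encodes the related carrier GLUT12 (chromosome 10, 22644990 to 22703880), stood at 8.87 and 7.44 FPKM in SC, at 1.16, 0.918 and 1.22 in SMF, and at 0.223 in EC replicate 2 while listed at 0 in the other two EC libraries. In SC replicates 1 and 3 it lay above the values of Slc2a1 given for the same libraries. It was 7.42-fold higher in SC than in SMF (log2 2.12, SE 0.17, adjusted p = 2.72e-05). The log2 difference SC minus EC was 3.09 (SE 0.17, adjusted p = 8.32e-06), and both calls held under the other scalings.

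The remaining tested sugar carriers were low. Slc2a3, the gene of the high-affinity carrier GLUT3, was highest in SC at 2.55 FPKM in both libraries, 3.18-fold above EC (adjusted p = 0.0037) and 7.46-fold above SMF (adjusted p = 0.000275). Slc2a10 had means of 1.26 in EC and 1.43 in SC, and its SMF values were 0.0957 in replicate 1 and a listed 0 in replicates 2 and 3. Slc2a8, the gene of an intracellular sugar carrier, ranged from 0.548 to 1.44 FPKM over the 8 libraries, and its call above SMF in SC did not hold under any other scaling. The pseudogene Slc2a4rg-ps lay between 0.452 and 1.06 in EC and SC and between 0.0573 and 0.123 in SMF. The 11 sugar carrier genes summed to 13 ± 1.19 FPKM (SD) in EC, 22 ± 1.16 in SC and 39 ± 3.3 in SMF. Slc2a4 made up 87.7% to 91.5% of the sum in SMF, Slc2a1 48.6% to 61.3% in EC, and Slc2a12 35.1% to 38.8% in SC with Slc2a1 at 24.1% to 33.7%.

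Among the monocarboxylate carriers, fibres and satellite cells differed in the lactate carrier they favoured, and endothelial cells were marked by less studied members. Slc16a3, which encodes MCT4, the lactate exporter of glycolytic cells (chromosome 11, 120948484 to 120959000), stood at 11.4, 11.1 and 12.8 FPKM in SMF, 2.62 and 2.02 in SC, and 1.5, 0.695 and 1.28 in EC. The fibre libraries did not overlap with the others. Its mean was 5.09-fold higher in SMF than in SC (log2 SC minus SMF -1.95, SE 0.20, adjusted p = 8.57e-05) and 10.2-fold higher than in EC (log2 EC minus SMF -2.59, SE 0.18, adjusted p = 7.53e-06). The difference between SC and EC (log2 0.63, adjusted p = 0.0383) was not called under any other scaling nor without any one of 7 libraries (adjusted p from 0.055 to 0.186).

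Slc16a1, which encodes MCT1, the lactate carrier found in most cells (chromosome 3, 104638664 to 104658462), stood at 11.2 and 8.24 FPKM in SC, at 6.93, 4.15 and 5.62 in SMF, and at 4.15, 2.2 and 3.51 in EC. The SC libraries were the highest. The mean was 2.96-fold higher in SC than in EC (log2 1.34, SE 0.27, adjusted p = 0.0061), which without SC replicate 1 became a log2 of 1.14 with an adjusted p of 0.0508. The call above SMF (log2 0.72, SE 0.27, adjusted p = 0.0464) turned its sign under the other scalings, to -0.68, -0.86 and -0.21, so the order of SC and SMF depends on the scale. Within SMF, Slc16a3 exceeded Slc16a1 in each library, and within SC and EC Slc16a1 exceeded Slc16a3 in each library by gene FPKM. In the deposited TPM table the order was the opposite in EC replicate 3, with 2.59 for Slc16a1 and 3.83 for Slc16a3.

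Slc16a13 and Slc16a11, which encode MCT13 and MCT11, lie tail to tail on chromosome 11 (70216789 to 70222740 on the minus strand and 70213695 to 70216414 on the plus strand), with 374 bp between them. Slc16a13 stood at 7.32, 6.07 and 8.62 FPKM in EC, at 0.97 in SC replicate 3 while listed at 0 in SC replicate 1, and at 0.206 and 0.298 in SMF replicates 2 and 3 while listed at 0 in SMF replicate 1. Slc16a11 stood at 5.83, 5.33 and 5.06 in EC, 0.224 and 0.627 in SC, and at 0.155 and 0.0881 in SMF replicates 1 and 3 while listed at 0 in SMF replicate 2. Both were highest in the EC libraries, without overlap. The log2 differences EC minus SMF were 2.83 (SE 0.27, adjusted p = 4.2e-05) and 2.57 (SE 0.16, adjusted p = 4.18e-06), and those of SC minus EC were -2.56 (SE 0.30, adjusted p = 0.000404) and -2.18 (SE 0.18, adjusted p = 5.98e-05). The EC values of Slc16a13 had the same order as the pericyte and immune marker sums of the 3 EC libraries, lowest in replicate 2 and highest in replicate 3. Those of Slc16a11 had another order, and the part of those other cells was not tested for either gene. Whether strand was used to assign reads is not given in the sources used here, but the annotated genes do not overlap.

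Other Slc16a genes carry other cargo. Slc16a10, which encodes a carrier of aromatic amino acids, was highest in SMF at 3.78 ± 0.232 FPKM (SD), against 2.03 ± 0.0437 in SC (log2 SC minus SMF -0.66, adjusted p = 0.00524). In EC it was listed at 0, 0.172 and 0.184. Slc16a9 was highest in EC at 1.8, 2.84 and 1.52 FPKM, and its difference SC minus EC moved from -0.97 (adjusted p = 0.0279) to -0.79 (adjusted p = 0.0595) without EC replicate 2 and to -0.63 (adjusted p = 0.178) without SC replicate 1. Slc16a6 lay between 0.866 and 1.47 FPKM in every library and had no call on the deposited scale.

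The makeup of the Slc16a family differed between the populations, while the order of its summed level depended on the scale. As deposited, the 13 genes summed to 26.9 ± 1.41 FPKM in EC, 24.8 ± 0.182 in SC and 23.6 ± 2.49 in SMF (SD). After median-of-ratios scaling the means were 19.1, 15.6 and 44.5, after upper-quartile scaling 17.3, 15.5 and 50.6, and with the most abundant genes left out 24, 17.2 and 33.9. By gene FPKM the largest share was that of Slc16a13 in EC (23.9% to 30.6%), of Slc16a1 in SC (33% to 45.5%) and of Slc16a3 in SMF (46% to 53.7%). In the deposited TPM table Slc16a11 lay above Slc16a13 in EC replicate 2 (4.9 against 4.67). No test was run on the sums, since 3 libraries against 3 cannot give an exact two-sided permutation p below 0.1, nor 3 against 2 below 0.2.

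**Figure D3:**
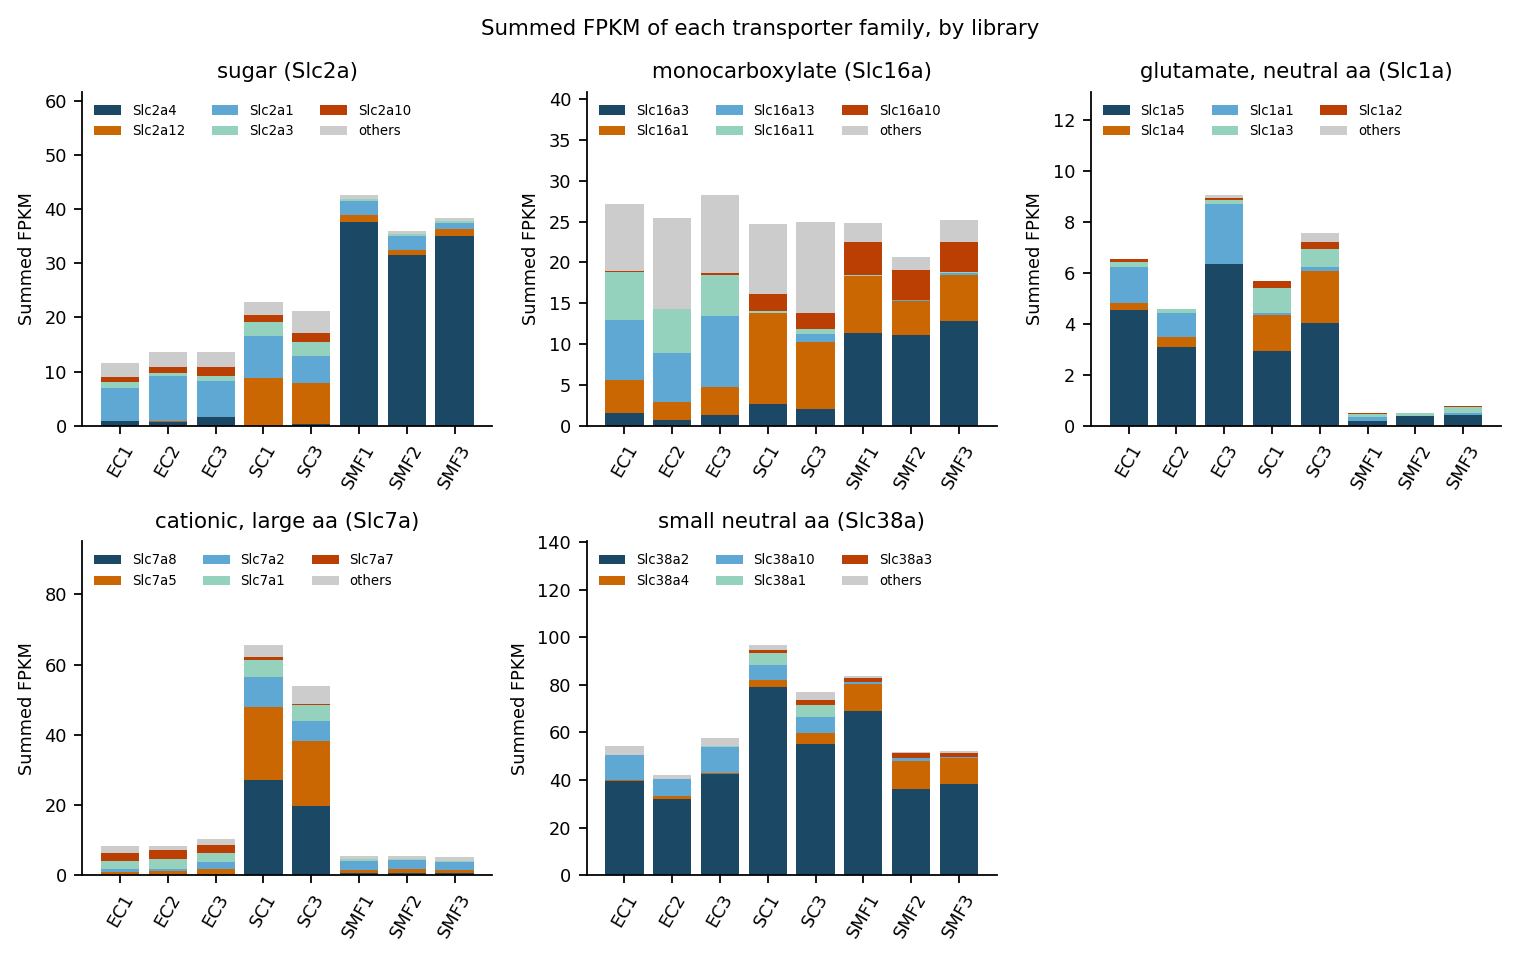
Summed FPKM (y axis) of the transporter genes of each family in the 8 libraries (x axis), stacked by gene, with 5 genes of high group mean in colour and the others in grey. On this deposited scale the Slc16a bars are of similar height with different makeup, the Slc7a bars of SC replicates 1 and 3 reach 65.6 and 53.8, and the Slc2a bars of SMF are mostly Slc2a4.

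Slc7a carriers of large neutral amino acids set the satellite cells apart. Slc7a8, which encodes LAT2 (chromosome 14, 54722215 to 54781886), stood at 27.2 and 19.8 FPKM in SC, at 0.799, 0.772 and 0.775 in SMF, and at 0.165 in EC replicate 3 while listed at 0 in the other two EC libraries. Slc7a5, which encodes LAT1, the leucine carrier of growing cells (chromosome 8, 121881146 to 121907686), stood at 20.6 and 18.3 in SC, 1.07, 1.11 and 1.59 in EC, and 0.85, 1.16 and 0.633 in SMF. Neither gene had overlapping values between SC and the other populations. Slc7a8 was 30.1-fold higher in SC than in SMF (log2 3.77, SE 0.17, adjusted p = 2.97e-06), with a log2 difference SC minus EC of 4.53 (SE 0.17, adjusted p = 1.69e-06). Slc7a5 was 15.5-fold higher in SC than in EC (log2 3.19, SE 0.18, adjusted p = 9.01e-06) and 22.1-fold higher than in SMF (log2 3.45, SE 0.18, adjusted p = 4.48e-06). These calls held under the other scalings.

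The carriers of cationic amino acids followed in the same direction with smaller differences. Slc7a1, which encodes CAT1, a carrier of arginine and lysine, stood at 4.93 and 4.54 FPKM in SC, 2.19, 2.6 and 2.65 in EC, and 0.585, 0.431 and 0.402 in SMF. Its mean was 1.91-fold higher in SC than in EC (adjusted p = 0.00581), a call not kept under every scaling, and 10.0-fold higher than in SMF (log2 1.96, adjusted p = 1.86e-05). Slc7a2, which encodes CAT2 (chromosome 8, 40862341 to 40922070), stood at 8.7 and 5.78 in SC, 0.806, 0.829 and 2 in EC, and 2.33, 2.35 and 2.39 in SMF. It was 5.97-fold higher in SC than in EC (log2 1.92, SE 0.26, adjusted p = 0.000936). Its call above SMF in SC (log2 1.27, adjusted p = 0.00328) fell to a log2 of -0.15 after upper-quartile scaling, and its call above EC in SMF (log2 EC minus SMF -0.64, adjusted p = 0.0404) was lost when any of 5 libraries was left out (adjusted p from 0.0886 to 0.121).

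The transcript table showed that the SC libraries assigned Slc7a2 to different transcripts. In SC replicate 1 a transcript of 7910 bases stood at 9.26 FPKM, 81.7% of what was listed for the gene, and in SC replicate 3 a transcript of 3677 bases stood at 13.4 FPKM, the whole of what was listed. The longer transcript was the one listed in SMF, at 2.52, 2.53 and 2.58. The gene values correspond to 1 fixed length of 8539 bases in all 8 libraries, whichever transcript was found. For this gene the order of the SC libraries was therefore the opposite in the deposited TPM table, with 7.47 in replicate 1 and 11 in replicate 3. Slc7a8 has no transcript in the transcript table, so its makeup is not analysed here.

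Slc7a7 and Slc7a6 encode y+LAT1 and y+LAT2, exchangers of cationic for neutral amino acids. Slc7a7 lies 302.1 kb from Slc7a8 on chromosome 14 and took the other direction. It stood at 2.42, 2.65 and 2.22 FPKM in EC and 0.77 and 0.251 in SC, with all 3 SMF libraries listed at 0. Its mean was 4.77-fold higher in EC than in SC (log2 SC minus EC -1.20, SE 0.19, adjusted p = 0.00204), and the difference was -1.16 without EC replicate 2. The part of immune cells in the EC values was not tested. Slc7a6 was 2.37 and 1.58 in SC and between 0.722 and 1.07 elsewhere. Its call above EC (log2 0.55, adjusted p = 0.0404) was lost under every other scaling and when any of 7 libraries was left out. The neighbouring Slc7a6os stood at 13.3 and 14 in SC, 8.67, 4.84 and 10.7 in EC, and 1.06, 0.994 and 1.04 in SMF. It was called above SMF in SC (log2 2.85, adjusted p = 6.17e-05) and in EC (log2 2.10, adjusted p = 0.000139), and its gene lies 1.7 kb from Slc7a6.

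Over the 14 Slc7a carrier genes, the summed level was 59.7 ± 8.33 FPKM (SD) in SC, 8.98 ± 1.15 in EC and 5.4 ± 0.136 in SMF. SC also had the highest sum under the other scalings, while EC fell below SMF by median-of-ratios (6.35 against 10.2) and upper-quartile scaling (5.75 against 11.6). Slc7a8 made up 36.8% to 41.5% and Slc7a5 31.4% to 34.1% of the SC sum. In EC the largest shares were those of Slc7a1 (25.7% to 31.1%) and Slc7a7 (21.6% to 31.6%), and in SMF that of Slc7a2 (42.4% to 45.6%). Slc7a11, the cystine carrier gene, did not exceed 0.412 FPKM in any library.

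The Slc38a family was dominated in every library by 1 gene. Slc38a2, which encodes SNAT2, a carrier of neutral amino acids that cells induce when amino acids are scarce (chromosome 15, 96687392 to 96699728), stood at 79.2 and 55.3 FPKM in SC, 39.6, 32 and 42.4 in EC, and 69.1, 36.1 and 38.2 in SMF. By gene FPKM it was the most abundant of the 55 transporters in every library, while in the deposited TPM table Slc2a4 lay above it in SMF replicate 2 (27.2 against 24.9) and replicate 3 (22.8 against 22.6). It made up 69.9% to 82.6% of the family sum. The SMF range overlapped with those of SC and EC, and no comparison was called on the deposited scale (log2 SC minus EC 0.79, SE 0.31, adjusted p = 0.0849; SC minus SMF 0.52, SE 0.31, adjusted p = 0.178; EC minus SMF -0.27, SE 0.28, adjusted p = 0.418). Without SMF replicate 1, the highest SMF library, SC was called above EC and above SMF on the deposited scale (limma adjusted p = 0.0317 and 0.0242). After median-of-ratios and upper-quartile scaling the difference SC minus SMF became -1.04 and -1.23, both called. The difference EC minus SMF was called under all 3 other scalings, at -1.65, -1.97 and -0.95 (limma adjusted p = 0.00209, 0.000928 and 0.016).

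On either side of Slc38a2 on chromosome 15 lie family members that differed in opposite directions between SC and SMF, while both were higher in SC than in EC. Slc38a4, which encodes SNAT4, lies 295.1 kb away (96994816 to 97055956) and stood at 11.2, 11.8 and 11 FPKM in SMF, 2.72 and 4.51 in SC, and 0.51, 1.1 and 0.383 in EC. The 3 populations did not overlap. Its mean was 3.14-fold higher in SMF than in SC (log2 SC minus SMF -1.45, SE 0.23, adjusted p = 0.000981) and 17.1-fold higher than in EC (log2 EC minus SMF -2.92, SE 0.21, adjusted p = 9.77e-06), and SC was 5.45-fold above EC (log2 1.47, SE 0.23, adjusted p = 0.00202). Slc38a1, which encodes the glutamine carrier SNAT1, lies 44.0 kb away on the other side (96571418 to 96643438). It stood at 5.39 and 5.24 in SC and at 0.217, 0.03 and 0.127 in SMF, and in EC at 0.317 and 0.441 in replicates 1 and 3 while listed at 0 in replicate 2. Its mean was 42.7-fold higher in SC than in SMF, a ratio to an SMF mean of 0.125 FPKM that rests on few fragments. The difference in log2(FPKM + 1) was 2.49 for SC minus SMF (SE 0.20, adjusted p = 2.88e-05) and 2.35 for SC minus EC (SE 0.20, adjusted p = 8.27e-05). The calls for Slc38a1 and Slc38a4 held under the other scalings.

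Slc38a3, which encodes SNAT3, the glutamine carrier of system N, was at 1.02 and 2.09 FPKM in SC and 1.53, 2.04 and 1.77 in SMF, and in EC at 0.101 and 0.231 while listed at 0 in replicate 2. SC and SMF overlapped (log2 -0.15, adjusted p = 0.57), and both were called above EC (log2 SC minus EC 1.17, adjusted p = 0.00464; EC minus SMF -1.32, adjusted p = 0.00059). Under the 3 other scalings SMF was called above SC, with log2 SC minus SMF of -1.17, -1.32 and -0.79 (adjusted p = 0.00121, 0.000608 and 0.0201). Slc38a10 ran the other way, at 10.2, 7.33 and 11 in EC, 6.19 and 6.65 in SC, and 0.776, 1.21 and 0.448 in SMF. Its mean was 11.7-fold higher in EC (log2 2.54, SE 0.20, adjusted p = 1.84e-05) and 7.91-fold higher in SC (log2 2.05, adjusted p = 0.000139) than in SMF, and both calls held under the other scalings. Slc38a6 was between 0.297 and 1.19 in EC and SC and at most 0.0587 in SMF, and its call above SMF in SC was lost without SC replicate 3 (adjusted p = 0.0782). Slc38a9, whose product senses arginine at the lysosome, did not pass the filter, at 0.9 to 1 in EC, 0.65 and 0.78 in SC, and 0.239 to 0.33 in SMF.

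The Slc1a carriers were low in fibres. Slc1a5, which encodes the glutamine carrier ASCT2 (chromosome 7, 16781334 to 16798274), stood at 4.54, 3.09 and 6.34 FPKM in EC, 2.95 and 4.03 in SC, and 0.203, 0.37 and 0.437 in SMF. The EC and SC ranges overlapped (log2 SC minus EC -0.30, adjusted p = 0.399), and the means were 13.8-fold and 10.4-fold above SMF (adjusted p = 0.000114 and 0.000587). Slc1a4, which encodes ASCT1, a carrier of serine and alanine, was at 1.42 and 2.05 in SC, at 0.275 and 0.41 in EC replicates 1 and 2, and listed at 0 in EC replicate 3 and in the 3 SMF libraries (log2 SC minus EC 1.16, adjusted p = 0.00451). Slc1a1, which encodes the glutamate carrier EAAT3, was highest in EC at 1.41, 0.929 and 2.38, against 0.0513 and 0.16 in SC (log2 SC minus EC -1.18, SE 0.26, adjusted p = 0.00847). That call was lost without SC replicate 1 (adjusted p = 0.0596). The EC values of Slc1a1 had the same order as the pericyte and immune marker sums of the EC libraries, and the part of those other cells was not tested. The family summed to 6.72 ± 2.25 FPKM in EC, 6.63 ± 1.34 in SC and 0.604 ± 0.16 in SMF (SD).

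**Figure D4:**
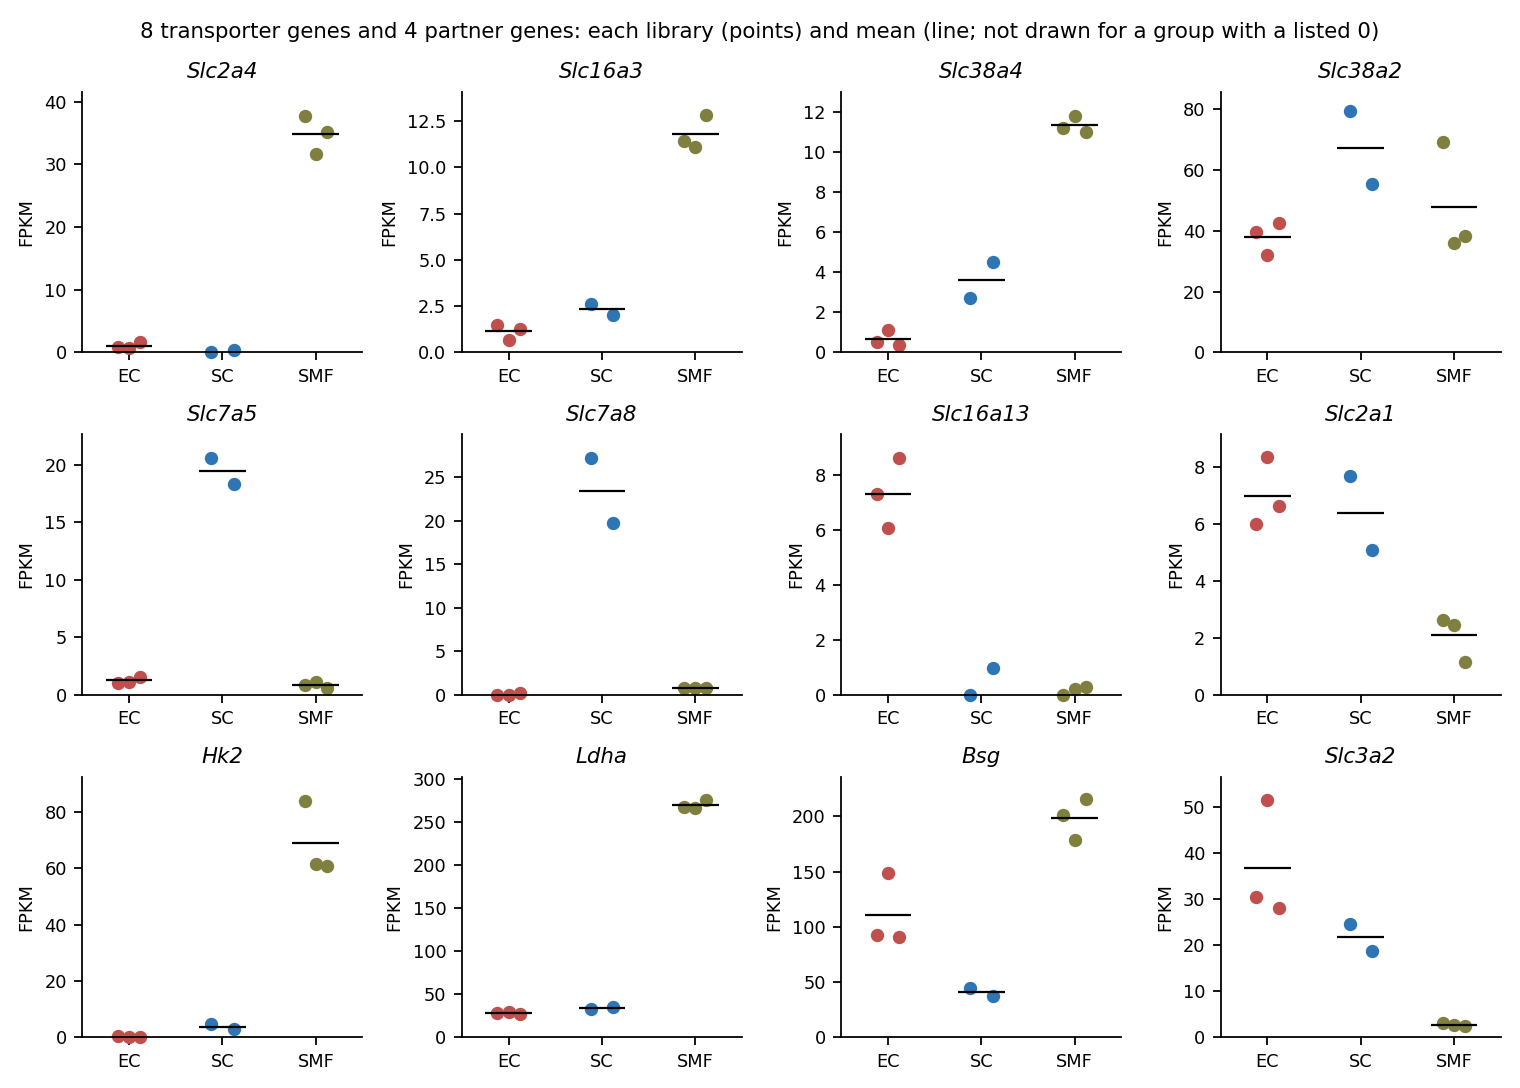
FPKM (y axis, from 0) of 8 transporter genes and 4 partner genes in each library (points) by population (x axis), with the mean as a line where no library is listed at 0. Slc2a4, Slc16a3 and Slc38a4 lie highest in the 3 SMF libraries together with Hk2, Ldha and Bsg, while Slc7a5 and Slc7a8 lie highest in SC, where Slc3a2 is at 24.5 and 18.8.

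The stretch before the start of 3 genes is shown because each led its family or stood apart in 1 population: Slc16a3 and Slc38a4 in fibres and Slc7a8 in satellite cells. They are the 250 bases upstream of a transcript start in RefSeq (GRCm38.p6), read 5′ to 3′ on the gene's strand, at chr11:120948817-120949066 (plus strand), chr15:97055957-97056206 (minus strand) and chr14:54781887-54782136 (minus strand). For Slc16a3 the start used, at 120949067, lies 583 bases inside the gene's outermost annotated start, so this window is within the gene as positioned above. Capitals mark ACGTG, the core of the site bound by hypoxia-inducible factors, and CAGCTG, an E-box form bound by myogenic factors, both searched on both strands.
Slc16a3: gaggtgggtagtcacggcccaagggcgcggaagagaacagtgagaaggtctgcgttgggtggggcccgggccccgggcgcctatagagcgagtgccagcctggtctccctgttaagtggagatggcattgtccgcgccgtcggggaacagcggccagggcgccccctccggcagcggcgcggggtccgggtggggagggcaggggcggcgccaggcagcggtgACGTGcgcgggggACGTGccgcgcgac
Slc38a4: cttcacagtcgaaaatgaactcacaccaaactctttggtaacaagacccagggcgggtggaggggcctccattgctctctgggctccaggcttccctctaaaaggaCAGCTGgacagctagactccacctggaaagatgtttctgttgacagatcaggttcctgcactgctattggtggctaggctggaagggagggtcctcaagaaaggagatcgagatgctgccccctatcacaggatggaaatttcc
Slc7a8: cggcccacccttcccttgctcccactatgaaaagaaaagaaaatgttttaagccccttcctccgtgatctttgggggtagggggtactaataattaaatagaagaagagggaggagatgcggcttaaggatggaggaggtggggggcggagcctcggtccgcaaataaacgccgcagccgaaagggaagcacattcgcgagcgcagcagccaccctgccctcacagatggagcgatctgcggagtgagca
The Slc16a3 window held 2 ACGTG, beginning 27 and 14 bases before the start, the Slc38a4 window held 1 CAGCTG 144 bases before it, and the Slc7a8 window held neither. ACGTG occurred in 16.6% of all 32851 windows of this length and in 12 of 50 windows of the family genes (24.0%). These windows belong to 11 genes, of which Slc16a1, Slc16a3, Slc2a1, Slc38a10 and Slc7a6 were tested. The rest, Slc16a12, Slc1a7, Slc38a5, Slc38a7, Slc7a14 and Slc7a15, did not pass the filter. CAGCTG occurred in 13.0% of all windows and in 6 of the 50 (12.0%). These matches describe the letters only, and no binding was measured. Slc2a4 and Slc7a5 have no window in the table.

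Genes that act together with the carriers were read from 8 lists. The counts of every list stand against these shares of all 16700 genes tested, on the deposited scale. Between SC and EC, 21.2% were higher in SC and 16.4% in EC. Between SC and SMF, 56.5% were higher in SC and 8.57% in SMF, and between EC and SMF, 55.5% in EC and 10.8% in SMF. A list count near such a share does not set the list apart. For glucose, the hexokinase gene Hk2, whose product traps glucose in muscle, stood at 83.9, 61.5 and 60.9 FPKM in SMF, 4.62 and 2.76 in SC, and at 0.285 and 0.223 in EC replicates 1 and 3 while listed at 0 in replicate 2. Like Slc2a4, it was highest in fibres (log2 SC minus SMF -3.91, SE 0.24, adjusted p = 8.07e-06). Txnip, whose product holds back glucose uptake, stood at 182, 183 and 189 in EC, 63.1 and 75.6 in SC, and 95.4, 51.6 and 56.6 in SMF (log2 SC minus EC -1.40, adjusted p = 0.00521). Its difference EC minus SMF was 1.48 as deposited but 0.08 and -0.24 after median-of-ratios and upper-quartile scaling (adjusted p = 0.795 and 0.457). Rab10, a GTPase of GLUT4 vesicles, was 40.5 ± 2.1 in SMF and 23.3 ± 1.38 in EC (SD; log2 EC minus SMF -0.77, adjusted p = 0.0011). Of 15 tested genes of the glucose list, 5 were higher in SC, 2 in EC and 8 not called between those populations, and the 5 became 3, 4 and 1 under the other scalings. Against SMF, 8 were higher in SC and 3 lower, and 11 were higher in EC and 3 lower. After upper-quartile scaling the counts against SMF were 2 higher and 7 lower for SC and 2 higher and 5 lower for EC.

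Of the lactate handling genes, 6 of 9 tested were called higher in SMF, both against SC and against EC. In both, 1 was called lower in SMF and the remaining 2 had no call, with medians of -1.20 for SC minus SMF and -0.87 for EC minus SMF. Under the other scalings 6 were higher in SMF than in SC, and 6 or 7 than in EC. On the deposited scale 8.57% of all genes tested were higher in SMF than in SC, and 10.8% than in EC. Ldha, the lactate dehydrogenase subunit of fast muscle, stood at 268, 266 and 276 FPKM in SMF, 32.4 and 35.5 in SC, and 28.3, 28.9 and 27.3 in EC (log2 SC minus SMF -2.96, SE 0.15, adjusted p = 3.76e-06). Bsg, the chaperone that brings MCT1 and MCT4 to the membrane, stood at 201, 179 and 216 in SMF, 93, 149 and 90.4 in EC, and 44.4 and 37.5 in SC. It was thus lowest in SC (log2 SC minus EC -1.38, SE 0.25, adjusted p = 0.00406), where Slc16a1 was highest on the deposited scale. Car4, a carbonic anhydrase of capillary surfaces, stood at 79.5, 47.1 and 64.9 in EC and was listed at 0 in the other 5 libraries.

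Slc3a2 encodes the heavy chain that LAT1, LAT2, y+LAT1 and y+LAT2 need at the membrane. It stood at 30.4, 51.4 and 28.1 FPKM in EC, 24.5 and 18.8 in SC, and 3.06, 2.67 and 2.44 in SMF. Its pattern was not that of Slc7a5 and Slc7a8: it was not called between SC and EC (log2 -0.69, SE 0.27, adjusted p = 0.0801) and was 7.94-fold higher in SC than in SMF (log2 2.59, SE 0.27, adjusted p = 9.5e-05). Slc43a3 had means of 36 ± 4.02 in EC and 33.8 ± 0.512 in SC against 0.395 ± 0.349 in SMF (SD). Slc6a6, the taurine carrier gene, was 31 ± 2.3 in EC and 19.3 ± 0.915 in SC (log2 SC minus EC -0.66, adjusted p = 0.00725). Its difference SC minus SMF changed sign with the scale, from 1.06 to -0.42 and -0.60. Of 9 tested genes of this list, 3 were higher in SC, 1 in EC and 5 not called between SC and EC. Against SMF, 8 were higher in SC and 0 lower (with 0 lower also at an unadjusted p under 0.05 by limma), and 5 were higher in EC and 1 lower. By both median-of-ratios and upper-quartile scaling 4 were higher in SC and 3 in SMF, and between EC and SMF the counts were 4 and 3 by the former and 3 and 3 by the latter. With the most abundant genes left out, 4 were higher in SC and 0 in SMF by limma, also 0 at an unadjusted p under 0.05.

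Of the genes of the response to amino acid shortage, Atf4 and Cebpb were higher in SC than in EC. Atf4, the transcription factor that drives this response, stood at 272 and 234 FPKM in SC, 111, 80.4 and 123 in EC, and 88.5, 57.7 and 72.4 in SMF (log2 SC minus EC 1.28, SE 0.26, adjusted p = 0.00638). Its difference SC minus SMF was 1.80 as deposited but 0.22 and 0.02 after median-of-ratios and upper-quartile scaling (adjusted p = 0.509 and 0.959). Cebpb stood at 153 and 169 in SC, 17.9, 14.7 and 21.8 in EC, and 25, 19.6 and 23.8 in SMF (log2 SC minus EC 3.10, SE 0.20, adjusted p = 2e-05). Ddit3 was not called between SC and EC (log2 0.55, SE 0.43, adjusted p = 0.362), and in SMF it stood at 73.7, 31.3 and 25.1. Of 13 tested genes of this list, 6 were higher in SC, 3 in EC and 4 not called, with a median of 0.55. Against SMF, 10 were higher in SC and 1 lower, and the 10 became 5, 4 and 7 under the other scalings. Between EC and SMF, 5 were higher in EC and 2 in SMF, and under the other scalings 5 were higher in EC and 6, 6 and 3 in SMF.

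Genes that sense amino acids for mTORC1 were seldom called between the sorted populations, where 37.7% of all genes tested were called. Of 17 tested, 2 were higher in SC, 0 in EC and 15 not called by limma, with a median of 0.01; at an unadjusted p under 0.05, 2 were higher in EC. Rragd, a GTPase of this pathway, was higher in SMF at 23.1, 26.5 and 18.1 FPKM, against 3.32 and 3.92 in SC and 0.18, 0.311 and 0.352 in EC (log2 SC minus SMF -2.34, SE 0.19, adjusted p = 2.66e-05). Rraga had means of 14.2 in both sorted populations and 8.08 in SMF, and its difference from SMF changed sign with the scale. Lamtor1, a subunit of the lysosomal anchor of this pathway, was higher in SMF than in SC (13.8 ± 1.01 against 5.93 ± 1.97, SD, adjusted p = 0.0259). Against SMF, 8 genes were higher in SC and 4 lower, and 9 were higher in EC and 2 lower, and after upper-quartile scaling the same counts were 0 and 8 by limma (2 higher in SC at an unadjusted p under 0.05), and 1 and 10.

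Enzymes that use the carried amino acids also differed. Nos3, which makes nitric oxide from arginine, stood at 20.2, 22.1 and 19.5 FPKM in EC, at 0.0739 in SC replicate 3, and was listed at 0 in SC replicate 1 and in SMF (log2 SC minus EC -4.38, SE 0.13, adjusted p = 7.83e-07). Odc1, the entry to polyamine synthesis, stood at 75.7 and 60.9 in SC, 14.8, 11.5 and 12 in EC, and 18.5, 17.6 and 15 in SMF (log2 SC minus EC 2.33, SE 0.18, adjusted p = 5.13e-05). Its difference SC minus SMF was 1.94 as deposited but 0.40 and 0.21 after median-of-ratios and upper-quartile scaling (adjusted p = 0.164 and 0.489). Ddah2 was also higher in SC than in EC (25.1 and 28 against 9.86, 8.35 and 12.2, adjusted p = 0.00116). Of 8 tested genes of the arginine list, 4 were higher in SC and 3 in EC, 3 were higher in SC and 1 in SMF, and 4 were higher in EC and 1 in SMF. Those between SC and EC were 4 and 3 under each scaling, while after upper-quartile scaling 2 were higher in SC and 2 in SMF, and 3 in EC and 3 in SMF.

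Of the enzymes of glutamine and glutamate, Glul, the glutamine synthetase gene, was higher in SC than in EC (76.7 ± 4.8 against 41.3 ± 3.69 FPKM, SD, log2 0.88, adjusted p = 0.00395). Its difference SC minus SMF changed from 0.80 to -0.76, -0.96 and -0.24 under the other scalings. Got2, the mitochondrial aspartate aminotransferase gene, was higher in SMF at 51.8, 34.8 and 47.6 than in SC at 9.96 and 12.7 (log2 SC minus SMF -1.88, adjusted p = 0.00122). Glud1 was called above SMF in SC and EC on the deposited scale and changed sign in both after upper-quartile scaling (-0.43 and -0.17). Of the 8 tested genes, 1 was higher in SC and 0 in EC with 7 not called by limma (1 was higher in EC at an unadjusted p under 0.05), 5 were higher in SC and 2 in SMF, and 5 were higher in EC and 2 in SMF. Among all genes tested, 56.5% were higher in SC than in SMF and 55.5% higher in EC than in SMF on the deposited scale. Under the 3 other scalings 0 of the 8 were called higher in SC than in SMF by limma (0, 0 and 1 at an unadjusted p under 0.05) and 3, 3 and 2 higher in SMF, while 2, 2 and 4 were higher in EC and 3 each time in SMF.

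Of 7 tested genes for enzymes of branched chain amino acids, 4 were higher in SMF than in SC, 3 were not called and 0 were lower by limma (0 lower also at an unadjusted p under 0.05). Against EC, 4 were higher in SMF, 1 was lower and 2 were not called, and 2 were higher in SC than in EC with 5 not called. Under the other scalings 7, 7 and 5 were higher in SMF than in SC and 6 each time than in EC. Dld, a subunit shared by several dehydrogenase complexes, stood at 55.4, 53.4 and 45.3 FPKM in SMF, 20.8 and 27 in SC, and 17.8, 14.7 and 16.7 in EC (log2 SC minus SMF -1.08, SE 0.18, adjusted p = 0.00117). Bckdk, the kinase that restrains the branched chain ketoacid dehydrogenase, was 8.8 ± 0.898 in SMF, 2.34 ± 0.331 in SC and 1.55 ± 0.0324 in EC (SD, log2 SC minus SMF -1.55, adjusted p = 5.6e-05). Dbt was called between SC and EC (log2 0.69, adjusted p = 0.0468) but not after median-of-ratios scaling (adjusted p = 0.073), and its difference SC minus SMF changed sign with the scale. Slc7a5 and Slc7a8, whose products bring these amino acids in, were at most 1.16 FPKM in the fibre libraries. In bulk libraries such as these, fewer cells of a type and less RNA per cell cannot be told apart.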

How the data were processed

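RNA of 8 libraries (3 EC, 2 SC, 3 SMF) was sequenced as pairs of 50 bp, from 10 ng of total RNA with a stranded, random-primed kit that removes ribosomal sequences, per the labels' protocols. Those protocols also say that 1 sample, not named, did not reach an RNA integrity number of 8. The submitters' processing notes name the build mm10 and the tools HISAT2, StringTie, bedtools, FastQC and Trimmomatic, while versions, settings and the use of strand are not stated there. The authors deposited FPKM for each gene and transcript and read coverage (signal) for each transcript, per the file headers. They also deposited TPM for each locus, with an average for each population, per the file headers. The authors' deposited specificity score was not used, since its formula is not stated.

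Groups came from the sample titles. Differences were tested with limma 3.58.1 (R 4.3.3) using its trend option on log2(FPKM + 1), which understates the change of low genes, over all 8 libraries with 3 group means and no covariate. Genes with 1 FPKM or more in 2 or more libraries entered, and p-values are two-sided with Benjamini-Hochberg adjustment over the 16700 genes of each comparison. Fold values are ratios of mean FPKM. The calculation was tested on simulated data. The alternatives were a pseudocount of 0.1, no filter, a filter at 5 FPKM, the 3 other scalings, only the 2 groups compared, a replicate block, each library left out, and the TPM table. Depth was taken as coverage over FPKM. All 57 symbols matched RefSeq (GRCm38.p6, the assembly of mm10), which gave positions and upstream sequences.

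The members, the partner and marker lists and the tests were chosen with earlier results of these data known. Members with a group mean of at least 10 FPKM were given in every library. The rule also allowed up to 4 genes of each partner list by mean level, of which 3 were named. Other members given in every library were picked after their values were seen. 1 tested member is counted but its values are not reported here. Castor1, Castor2 and Samtor were not analysed here, and Itgam, a marker listed under a pair of identifiers, was taken from the row with the higher mean.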

Additional observations from a re-analysis of the deposited data

How the results depend on the processing

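Of the 68 calls made for tested rows, 45 kept their direction and call in each alternative that gave them a value. The same held for 11 of 25 comparisons without a call. Each comparison had 13 to 17 such alternatives, since genes that miss a filter have no value there. The numbers of tested members called moved with the 5 FPKM filter, where fewer genes are tested, and with scaling, where the cause was not tested. They also moved with the SC libraries. Slc1a4, Slc38a1 and Slc7a8 left the test when either SC library was left out, and Slc2a8 did so without SC replicate 3. Why other calls changed there was not tested. Higher in SC than in EC were 15 (8 to 14 with 1 library left out), and higher in EC 6 (3 to 6, and 3 at 5 FPKM). Higher in SC than in SMF were 20 (13 to 20 with 1 library left out, 10 at 5 FPKM, and 13 under each of the 3 scalings), and higher in SMF 4 (7 by median-of-ratios and 8 by upper-quartile scaling). Higher in EC than in SMF were 15 (6 at 5 FPKM), and higher in SMF 8 (14 by upper-quartile scaling).

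Over all genes, calls for SC over EC went from 3543 to 2274 at 5 FPKM and 2100 without the most abundant genes (1733 to 3466 with 1 library left out), and for EC over SC from 2745 to 1815 at 5 FPKM. Calls for SC over SMF went from 9436 to 5099 at 5 FPKM and to 4584, 4066 and 5863 by median of ratios, by upper quartile and with the most abundant genes left out, and for SMF over SC from 1431 to 3737, 4138 and 2611. Calls for EC over SMF went from 9268 to 5014 at 5 FPKM, 5357 by median-of-ratios and 4550 by upper-quartile scaling, and for SMF over EC from 1811 to 4116 and 4865.

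The following differences changed sign and were called before or after the change under at least 1 scaling. With median-of-ratios and upper-quartile scaling in this order, the log2 difference SC minus SMF turned to -0.68 and -0.86 for Slc16a1, -0.80 and -0.94 for Slc16a6, -0.26 and -0.37 for Slc2a8, -1.04 and -1.23 for Slc38a2, and -0.25 and -0.37 for Slc7a6. Among partner genes it turned to -0.86 and -1.03 for Dbt, -0.25 and -0.43 for Glud1, -0.76 and -0.96 for Glul, -0.71 and -0.89 for Rraga, -0.42 and -0.60 for Slc6a6, and -1.49 and -1.68 for Txnip. Upper-quartile scaling alone turned it to -0.10 for Slc2a1 and -0.15 for Slc7a2. Without the most abundant genes it was -0.21 for Slc16a1, 0.00 for Slc2a8, -0.24 for Glul, -0.21 for Rraga and -0.96 for Txnip. The difference EC minus SMF turned to -0.08 and -0.20 for Slc2a3, -0.62 and -0.80 for Slc7a6, -0.88 and -1.21 for Atf4, and -0.55 and -0.86 for Rraga in the same order. It was -0.26 and -0.42 for Slc2a8 and -0.48 and -0.67 for Slc7a5 (-0.09 without the most abundant genes), and by upper-quartile scaling alone -0.17 for Glud1 and -0.24 for Txnip.

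Whether same-numbered libraries were paired in any way is not stated. Their deviations from the group means correlated between -0.058 and 0.091, and those of libraries with different numbers between -0.091 and 0.058. With 2 or 3 libraries in a group, these correlations cannot decide whether libraries were paired. With a replicate block, 12 members were higher in SC and 5 in EC, 17 in SC and 4 in SMF, and 14 in EC and 8 in SMF. Depth limits the members below about 1 FPKM, which rest on few fragments, and with 2 SC libraries the loss of 1 leaves a lone SC library that is assumed to vary like the other groups.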
